A study of Mus musculus with 2 samples.

Results

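Protein tyrosine phosphatases were described as the classical family of receptor-type genes named Ptpr with 1 letter and non-receptor genes named Ptpn with a number. The rule used the symbol alone, and 38 of the 22558 genes in the tables met the rule, 21 of them receptor-type and 17 non-receptor. The RNA came from 2 sorted cell fractions of breast tumours of FVB mice, dissociated, purified by flow cytometry without culture and given no treatment. One library was made from the tumour-initiating cells (TIC) and 1 from the non-tumorigenic cells (NTC). The sources used here do not give the tumour model, the animals per library or the antibodies used in sorting. With 1 library per group there is no replicate, no SD and no test, and every difference below is one between these 2 libraries. Levels are FPKM (fragments per kilobase of transcript, scaled to the mapped total), which are per length, although amplification of the cDNA can still shift levels between genes, and ratios are log2((TIC + 1)/(NTC + 1)), a scale that understates the difference of low genes. In RNA from sorted cells, fewer cells of one type and less RNA per cell cannot be told apart.

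Protein tyrosine phosphatases remove phosphate from tyrosine and so oppose the tyrosine kinases. The catalytic domain holds a loop whose cysteine takes up the phosphate for a moment before water releases it. Receptor-type members span the membrane, and many have outer parts built like those of adhesion molecules and a pair of inner phosphatase domains, of which the one next to the membrane does most of the work. Non-receptor members are steered to their substrates by other domains, such as SH2, FERM, PDZ or proline-rich stretches. In epithelia they act on growth factor receptors, on integrin signals and on the proteins of cell contacts.

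The active-site loop is shown first because it defines the family, and because close relatives that share it, such as Ptprs and Ptprf, differed in opposite directions between the libraries. It was sought in the longest open reading frame of the longest coding transcript of each gene (GENCODE M21, the C57BL/6J reference, not the FVB strain of the cells) as histidine, then cysteine or aspartate, serine or alanine, any residue, glycine, any 2 residues and arginine. All 37 members with a coding transcript had at least 1 match, and Ptpra, Ptprd, Ptpre, Ptprf and Ptprs had 2. Capitals mark the 24 bases of the first loop and the lower case letters 12 bases on each side, 5′ to 3′.
Ptprs: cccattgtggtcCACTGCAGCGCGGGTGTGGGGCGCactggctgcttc
Ptprf: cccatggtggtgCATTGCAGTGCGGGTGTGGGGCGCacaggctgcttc
Ptprt: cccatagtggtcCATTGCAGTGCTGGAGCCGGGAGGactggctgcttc
Ptprm: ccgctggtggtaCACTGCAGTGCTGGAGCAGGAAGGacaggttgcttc
Ptprk: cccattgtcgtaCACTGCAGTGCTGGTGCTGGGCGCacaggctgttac
Ptpru: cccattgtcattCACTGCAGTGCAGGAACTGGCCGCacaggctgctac
Ptpn14: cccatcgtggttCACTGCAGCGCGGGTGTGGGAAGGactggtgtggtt
Ptpn21: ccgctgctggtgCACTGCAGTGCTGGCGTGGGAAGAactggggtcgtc
Ptpn18: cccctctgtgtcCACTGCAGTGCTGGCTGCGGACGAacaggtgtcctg
Ptpn12: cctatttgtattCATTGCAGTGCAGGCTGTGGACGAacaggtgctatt
Ptprn: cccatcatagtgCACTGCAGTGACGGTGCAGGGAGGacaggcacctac

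The loops of Ptprs and Ptprf differed at 2 of 24 bases and encoded the same 8 residues. Ptpn14 and Ptpn21 differed at 4 bases, and Ptpn18 and Ptpn12 at 3, again with no difference in the residues. Ptprt, Ptprm and Ptprk also shared their 8 residues, whereas Ptpru differed from Ptprt at 1 residue. The loop of Ptprn, which is known to lack tyrosine phosphatase activity, differed from that of Ptprz1 at 2 residues. Ptprz1 was a chosen comparator, and the number depends on the gene compared. Whether these residues bear on activity was not tested. Of 36 first loops compared (that of Ptpn2 was not used), the most frequent residue sequence was that of 16 members, 13 of them receptor-type, and the next that of 10 members, of which Ptprr was the receptor-type one. Members with the most frequent loop did not all share a direction. Among the 16, 3 were 2-fold or more higher in TIC, 2 at least 2-fold lower, 4 within 2-fold and 7 below the level at which a ratio was read. Among the 10, 1 was higher, 0 lower, 6 within 2-fold and 3 below that level. Over all genes with a ratio, 14.6% were as much higher and 13.8% lower.

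A ratio was read where the mean of both libraries reached 1 FPKM, and such genes are called measured. This held for 25 of the 38 members, 12 receptor-type and 13 non-receptor. Higher in TIC by 2-fold or more were 8 members, namely Ptprt, Ptpru, Ptpn14, Ptprm, Ptpre, Ptpn13, Ptprs and Ptprv, against 14.6% of the 12004 measured genes. Lower by as much were 3, Ptpn18, Ptprz1 and Ptprf, against 13.8% of measured genes. The other 14 lay within 2-fold. The median log2 ratio of the measured members was 0.31, beside -0.16 for all measured genes. Of the 25, 4 passed through 1 library only (Ptprt, Ptpru and Ptprm through TIC, Ptpn18 through NTC). The filter thus fixed the direction of these 4, and favoured a 2-fold difference without forcing it. Of the 21 members with at least 1 FPKM in both libraries, 5 were at least 2-fold higher and 2 lower, where among 10466 such genes the shares were 8.84% and 11.1%.

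**Figure D1:**
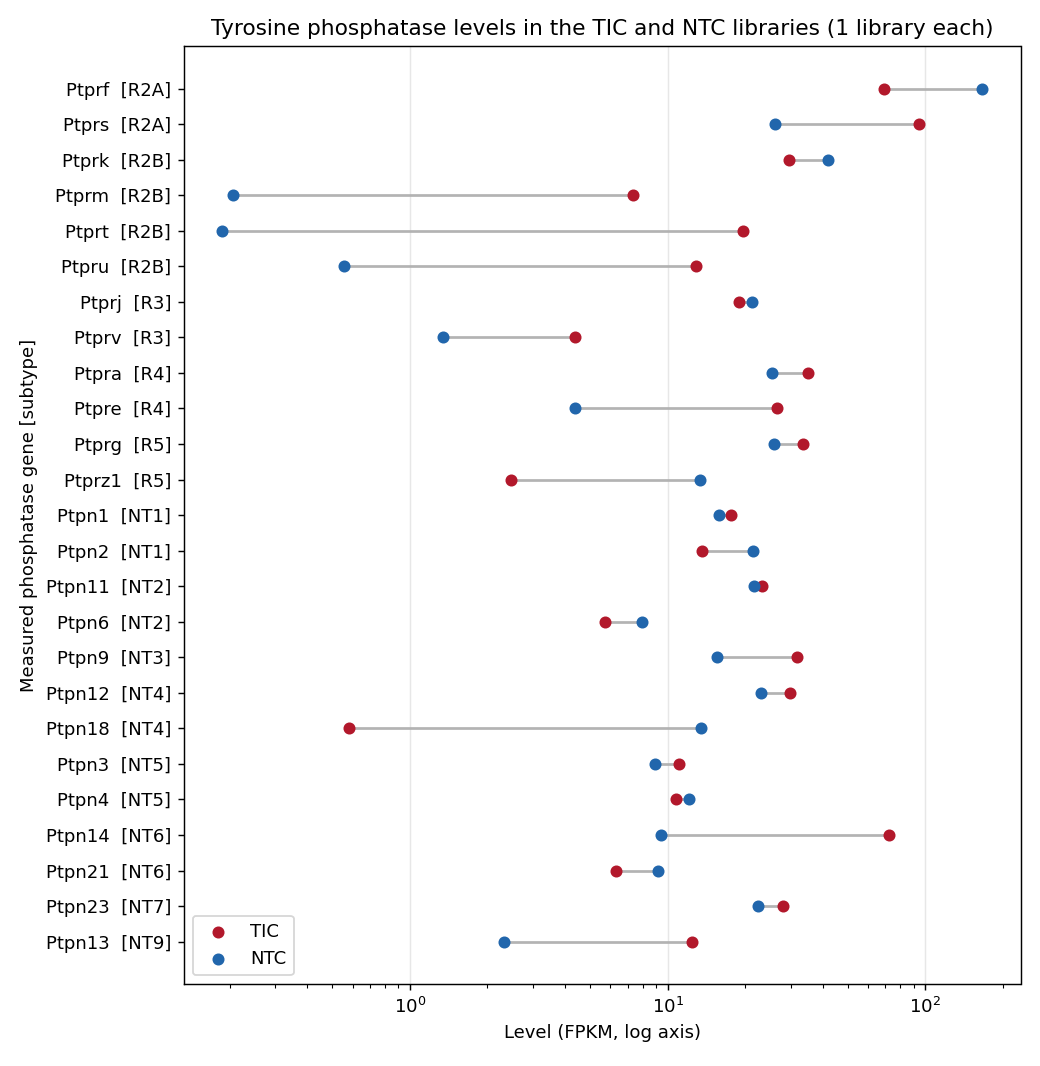
Levels of the 25 measured phosphatase genes in FPKM on a log axis, with 1 point for the TIC library (red) and 1 for the NTC library (blue), ordered by subtype. Ptprt, Ptprm, Ptpru and Ptpn18 have the widest gaps, while Ptpn11 and Ptpn1 lie close together.

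Of the 12 measured receptor-type genes, 6 were 2-fold or more higher in TIC and 2 lower, with a median log2 ratio of 0.82. Of the 13 measured non-receptor genes, 2 were at least 2-fold higher and 1 lower, with a median of 0.14. Of the receptor-type genes, 3 (Ptprt, Ptpru and Ptprm) were measured through TIC alone. Among the 9 with at least 1 FPKM in both libraries, 3 were higher and 2 lower (median 0.37), beside 2 and 0 of 12 non-receptor genes (median 0.21). No test of this contrast is possible with 1 library per group. Summed over all 38 members, the level was 619.4 FPKM in TIC and 510.9 FPKM in NTC. The receptor-type genes made up 57.5% of that sum in TIC and 64.0% in NTC.

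The LAR-type receptors (subtype R2A) have outer parts of immunoglobulin and fibronectin repeats, bind heparan sulphate proteoglycans and synaptic adhesion molecules, and are known from neurite growth and cell contacts. Ptprs (chromosome 17, 56551849 to 56615903, build mm9) had 94.3 FPKM in TIC and 26.2 FPKM in NTC, a log2 ratio of 1.81. It was the highest phosphatase gene of the TIC library and the third highest of NTC. Ptprf (LAR itself, chromosome 4, 117880818 to 117964002) had 69.4 FPKM in TIC and 166.4 FPKM in NTC, a log2 ratio of -1.25, and was the highest phosphatase gene of NTC. The sum of the subtype was 165.5 FPKM in TIC and 192.6 FPKM in NTC, so the subtype differed less than either gene did. Ptprf held 86.4% of it in NTC and 41.9% in TIC, and Ptprs 13.6% in NTC and 57.0% in TIC. Ptprd, the remaining LAR-type gene, had 1.83 FPKM in TIC, or about 380 reads, against 0 in NTC, with a mean just under the level at which ratios were read.

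The MAM-domain receptors (subtype R2B) bind their own kind on the neighbouring cell and sit at cadherin contacts, and Ptprt among them had the largest ratio of the measured members. Ptprt (chromosome 2, 161353359 to 162486883) had 19.6 FPKM in TIC and 0.186 FPKM in NTC, a log2 ratio of 4.12. Ptpru (chromosome 4, 131324372 to 131394193) had 12.9 FPKM in TIC and 0.556 FPKM in NTC, a log2 ratio of 3.16. Ptprm (chromosome 17, 67016188 to 67703799) had 7.31 FPKM in TIC and 0.206 FPKM in NTC, a log2 ratio of 2.78. All 3 were below 1 FPKM in NTC, where they rest on about 49, 66 and 23 reads by a rough estimate. Ptprk, the TGF-beta-inducible member, went the other way within 2-fold, with 29.6 FPKM in TIC and 41.8 FPKM in NTC (log2 ratio -0.48). It made up 97.8% of the subtype's sum in NTC and 42.7% in TIC. The locus of Ptprt overlaps that of the transcript C330008G21Rik, and the files describe Ptpru by several gene identifiers, so those values may include reads of other models.

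The R4 receptors have short outer parts and are known to activate Src by removing its inhibitory phosphate. Ptpre (chromosome 7, 142729507 to 142877977) had 26.7 FPKM in TIC and 4.37 FPKM in NTC, a log2 ratio of 2.36 (1.76 with a pseudocount of 5). Ptpra had 35.1 FPKM in TIC and 25.4 FPKM in NTC, a log2 ratio of 0.45 within 2-fold. The share of Ptpre in the sum of the pair was 43.2% in TIC and 14.7% in NTC. Both loci overlap other transcripts (4930473A02Rik at Ptpra, 5830432E09Rik and Mir1962 at Ptpre), and the sources used here do not say whether counting used the strand.

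The R5 receptors carry a carbonic anhydrase-like outer domain. Ptprz1 (chromosome 6, 22825502 to 23002916), whose ligands are pleiotrophin and midkine, had 2.46 FPKM in TIC and 13.3 FPKM in NTC, a log2 ratio of -2.05 (-1.29 with a pseudocount of 5). Ptprg, which binds contactins, had 33.6 FPKM in TIC and 25.8 FPKM in NTC, a log2 ratio of 0.37. Ptprz1 gave 34.0% of the pair's sum in NTC and 6.83% in TIC.

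Of the 6 R3 receptors, Ptprj and Ptprv were measured. Ptprj, known as a suppressor of growth factor receptor signals, had 18.8 FPKM in TIC and 21.2 FPKM in NTC (log2 ratio -0.16). Ptprv, the osteotesticular phosphatase (chromosome 1, 137005075 to 137029152), had 4.36 FPKM in TIC and 1.34 FPKM in NTC, a log2 ratio of 1.20 that was 0.56 with a pseudocount of 5. Its locus ends just before that of Ptpn7, which had 0.0365 FPKM in TIC and 0.105 FPKM in NTC.

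**Figure D2:**
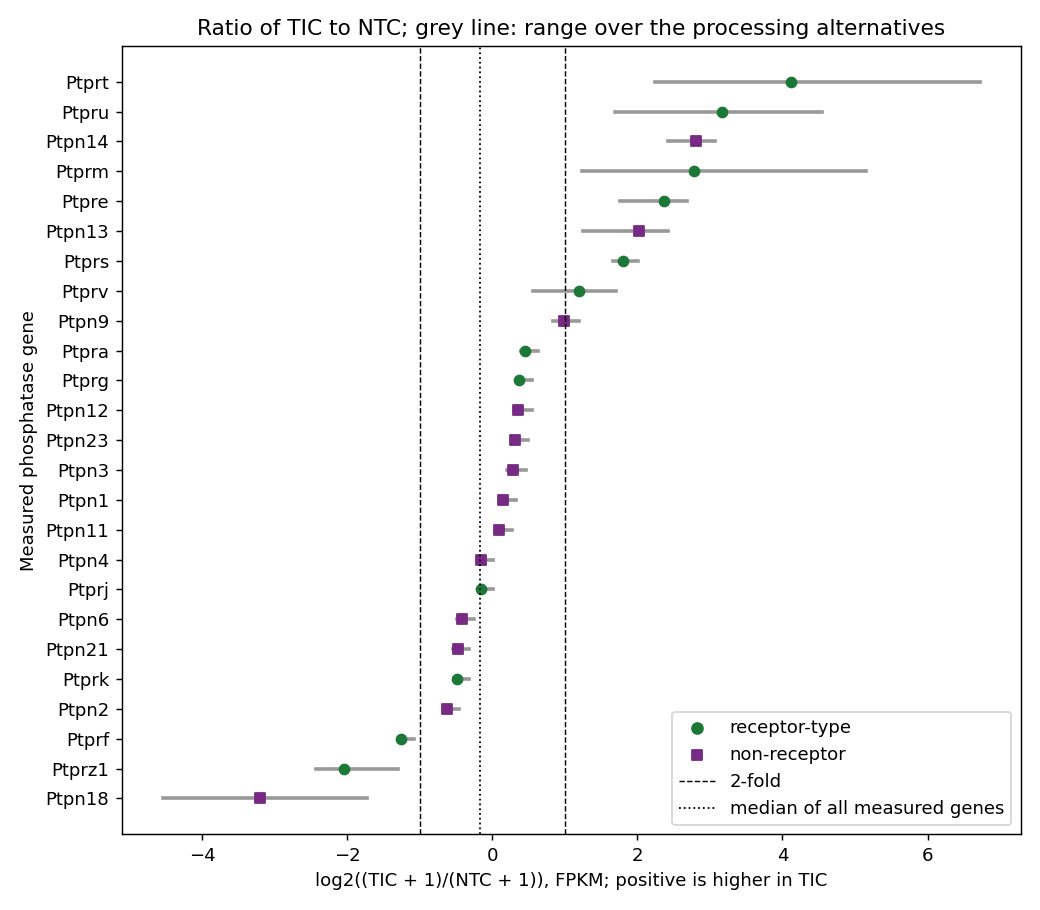
Log2 ratio of TIC to NTC for the 25 measured members (circles receptor-type, squares non-receptor), with a grey line from the lowest to the highest value over the processing alternatives. Ptprt lies highest at 4.12 and Ptpn18 lowest at -3.20, and Ptpn9, at 0.99, sits on the 2-fold line.

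Of the non-receptor enzymes, the FERM-domain gene Ptpn14 had the largest difference toward TIC. Ptpn14 is known to bind the Hippo effector Yap1 and to hold it in the cytoplasm. It had 72.1 FPKM in TIC and 9.40 FPKM in NTC, a log2 ratio of 2.81 (chromosome 1, 191552147 to 191700572), and was the second highest phosphatase gene of the TIC library. Its closest relative Ptpn21 had 6.30 FPKM in TIC and 9.17 FPKM in NTC, a log2 ratio of -0.48. Ptpn14 thus made up 92.0% of the pair's sum in TIC and 50.6% in NTC, where the levels of both genes were nearly equal. The giant FERM and PDZ protein Ptpn13 (chromosome 5, 103854211 to 104027380), which binds the death receptor Fas, had 12.5 FPKM in TIC and 2.33 FPKM in NTC, a log2 ratio of 2.02 that was 1.25 with a pseudocount of 5. The smaller FERM and PDZ genes Ptpn3 (11.0 FPKM in TIC, 8.90 FPKM in NTC) and Ptpn4 (10.8 and 12.1 FPKM) lay within 2-fold.

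The PEST-type enzymes carry a proline-rich tail that binds adaptor proteins. Ptpn18 (chromosome 1, 34516591 to 34530624), which is known to dephosphorylate the receptor ErbB2, had 0.580 FPKM in TIC and 13.5 FPKM in NTC, a log2 ratio of -3.20. The TIC value rests on about 19 reads. Ptpn12, a regulator of focal adhesions, had 29.9 FPKM in TIC and 23.1 FPKM in NTC (log2 ratio 0.36). Ptpn22, the lymphoid member, was at 0 in TIC against 0.595 FPKM in NTC, or about 35 reads.

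The remaining measured non-receptor enzymes lay within 2-fold on the ratio with a pseudocount of 1. Ptpn11 (SHP2), the SH2-domain enzyme that carries growth factor signals toward Ras, had 23.2 FPKM in TIC and 21.6 FPKM in NTC. Ptpn1 (PTP1B), which acts on the insulin receptor, had 17.5 and 15.8 FPKM in the same order. Ptpn2, which acts on JAK kinases, had 13.6 FPKM in TIC and 21.4 FPKM in NTC (log2 ratio -0.62). Ptpn23, of the endosomal sorting machinery, had 27.9 FPKM in TIC and 22.4 FPKM in NTC. Ptpn9, which lies on secretory vesicles, had 31.8 FPKM in TIC and 15.5 FPKM in NTC. Its log2 ratio was 0.99, and it counted as 2-fold higher under 5 alternative settings, among them the 3 that rescale or centre the libraries.

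**Figure D3:**
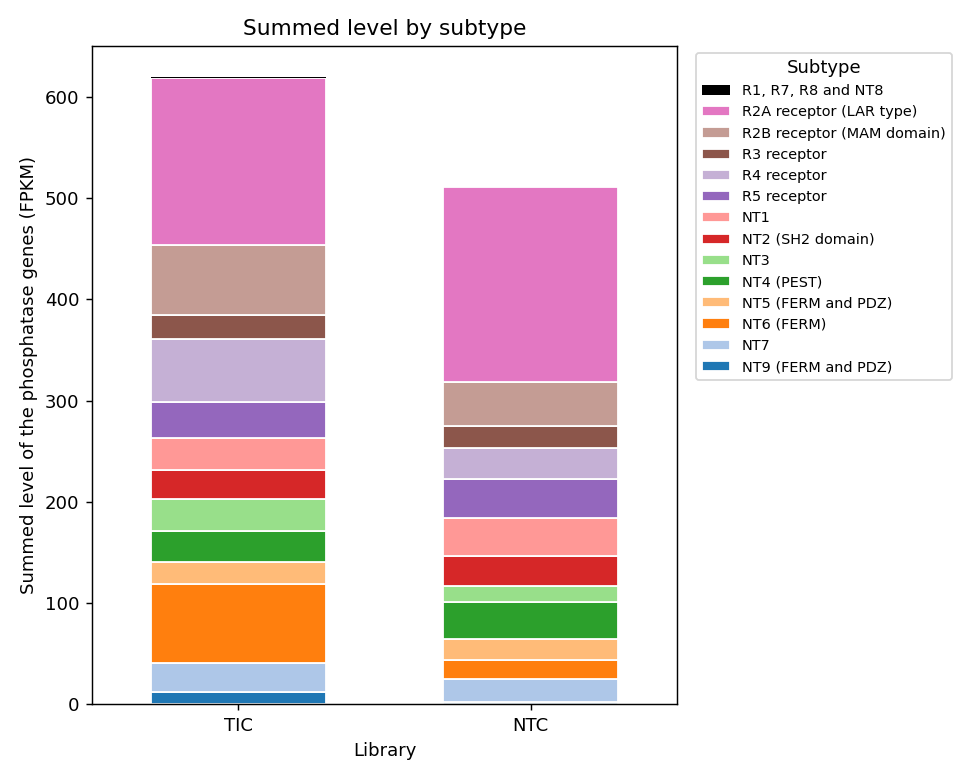
Stacked bars of the summed FPKM of the 38 phosphatase genes by subtype in the TIC and NTC libraries, on an axis that starts at 0. The FERM subtype NT6 takes 78.4 FPKM in TIC and 18.6 FPKM in NTC, and the LAR-type subtype R2A is the largest block of both.

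The 3 highest members held 38.1% of the summed level in TIC (Ptprs, Ptpn14 and Ptprf) and 45.9% in NTC (Ptprf, Ptprk and Ptprs). By subtype, NT6 made up 12.7% of the sum in TIC and 3.64% in NTC, R4 9.96% and 5.83%, and R2B 11.2% and 8.36%. The LAR type made up 26.7% in TIC and 37.7% in NTC. The sums of subtypes NT1, NT2 and NT5 were similar, at 31.1 and 37.2, 28.9 and 29.6, and 21.8 and 21.0 FPKM for TIC and NTC.

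The 13 members that were not measured included the genes of leukocytes, endothelium and neuroendocrine cells. Ptprc (CD45), Ptprh, Ptprq, Ptprr and Ptpn20 were listed at 0 in both libraries. An exact 0 in such a table is not read as absence. After Ptprd, the highest by their higher library were Ptpn22, Ptprn2 (0.291 FPKM in TIC, 0.194 in NTC) and Ptpro (0.139 FPKM in TIC, 0 in NTC). Ptprb, the endothelial phosphatase, was listed with 0.0592 FPKM in TIC against 0 in NTC, and Ptprn of secretory granules had 0.0202 and 0.0767 FPKM.

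Markers of other cells were read beside these values. Of 22 leukocyte markers, 11 were listed at 0 in both libraries, among them Cd3e, Emr1, Tyrobp and Laptm5. The list summed to 28.4 FPKM in TIC and 84.4 FPKM in NTC, of which Lcp1, which epithelial tumours can also express, gave 21.6 and 81.55 FPKM. Coro1a went the other way, with 3.65 FPKM in TIC and 0.0771 FPKM in NTC. Ptpn6 (SHP1), known from blood cells and also from epithelia, had 5.69 FPKM in TIC and 7.96 FPKM in NTC, a log2 ratio of -0.42. The 11 endothelial markers summed to 5.41 FPKM in TIC and 2.10 FPKM in NTC, with Egfl7 highest at 2.14 FPKM in TIC and Cldn5 at 0 in both. The 10 neural and neuroendocrine markers summed to 356.0 and 301.1 FPKM, of which Sox10, a factor that mammary cells also use, gave 345.8 and 288.1 FPKM, and Chga and Scg2 were at 0 in both.

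Fibroblast markers were read in the same way. They summed to 176.9 FPKM in TIC and 2.44 FPKM in NTC, and all 5 measured of 9 were 2-fold or more higher in TIC. Of these, Pdgfra, Pdgfrb, Col1a2 and Thy1 passed through TIC only, so the filter fixed their direction. Dcn gave most of the sum, with 151.8 FPKM in TIC and 1.51 FPKM in NTC, while Fap was at 0 in both and Col1a1 had 0.459 and 0.339 FPKM. Lineage markers differed in both directions. All 10 basal markers were measured, 9 were 2-fold or more higher in TIC, and the list summed to 4371 FPKM in TIC and 84.4 FPKM in NTC, with Acta2 highest in TIC (2101 FPKM) and Itgb4 highest in NTC (42.9 FPKM). All 10 luminal markers were 2-fold or more lower in TIC, with sums of 202.0 and 3816 FPKM, Epcam highest in TIC (153.8 FPKM) and Krt19 in NTC (1176 FPKM). The basal markers Myh11 and Cnn1 passed through TIC only. Cldn3, Cldn4, Elf5, Ehf and Foxa1 of the luminal list passed through NTC only, so the filter fixed the direction of these genes too. The part of the marker lists in the phosphatase differences was not tested.

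Known ligands of the receptors were compared next. In this and the following lists, the shares over all measured genes (14.6% higher, 13.8% lower) are the background, and a count near them is no result about the list. Of 13 measured ligands among 25 listed, 8 were 2-fold or more higher in TIC and 2 lower, with a median log2 ratio of 1.68. Among those higher, Mdk, Cntn1 and Slitrk6 passed through TIC only. Both growth factors that bind Ptprz1 were higher in the library in which the receptor was lower. Pleiotrophin (Ptn) had 943.1 FPKM in TIC and 28.7 FPKM in NTC, a log2 ratio of 4.99. Midkine (Mdk) had 57.7 FPKM in TIC and 0.316 FPKM in NTC, a log2 ratio of 5.48. Contactin-1 (Cntn1), an adhesion molecule that also binds Ptprz1, had 33.4 FPKM in TIC and 0.0411 FPKM in NTC, a log2 ratio of 5.05. The ligands 2-fold or more lower in TIC were syndecan-4 (Sdc4, 77.9 FPKM in TIC, 241.4 in NTC) and tenascin-C (Tnc, 9.71 and 23.5 FPKM). Tenascin-C is also known to bind Ptprz1, so the ligands of that receptor did not all run against it. Of the liprins and other inner partners of the LAR-type receptors, 4 of 7 were measured and Ppfibp2 alone passed 2-fold, with 7.21 FPKM in TIC and 19.2 FPKM in NTC (list median 0.10).

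Kinases and adaptors on the other side of the reaction were split in direction. Of 7 measured genes among 10 of the Src list, 2 were 2-fold or more higher in TIC and 2 lower (median -0.45). Fyn had 8.67 FPKM in TIC and 0.562 FPKM in NTC, and Src had 25.01 and 11.9 FPKM. Lyn had 5.47 FPKM in TIC and 54.6 FPKM in NTC. Among the receptor tyrosine kinases, 7 of 15 measured were 2-fold or more higher in TIC and 4 lower (22 listed, median 0.82). Of those higher, Ddr2, Pdgfra and Pdgfrb passed through TIC only, so the filter fixed their direction. The largest toward TIC were Ddr2 (17.1 FPKM in TIC, 0.832 in NTC), Pdgfra (8.83 and 0.513) and Fgfr2 (58.3 and 9.29). The largest toward NTC were Met (4.33 FPKM in TIC, 48.6 in NTC), Erbb3 (7.97 and 43.1) and Kit (89.2 and 282.6).

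The docking proteins that recruit Ptpn11 and Ptpn6 were lower in TIC where they differed, although the 2 enzymes lay within 2-fold. Of 9 measured genes among 12 in this list, none was 2-fold or more higher in TIC and 4 were lower (median -0.33). The list and its median also include Grb2, Sos1 and Sos2, which are not such docking proteins. Their log2 ratios were 0.14, -0.33 and -0.27. Gab2 had 0.171 FPKM in TIC and 16.7 FPKM in NTC, Irs1 had 21.1 and 93.8 FPKM, and Gab1 had 23.5 and 78.2 FPKM. Of 10 measured JAK and STAT genes among 11, 4 were 2-fold or more lower in TIC and none higher (median -0.83). Stat5a, which drives milk genes, had 11.0 FPKM in TIC and 83.4 FPKM in NTC, Stat5b had 7.77 and 29.8 FPKM, and Jak3 had 1.503 and 6.77 FPKM.

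Of the 11 focal adhesion substrates, 2 were higher and 2 lower (median 0.14), shares close to those over all genes. Bcar1 (p130Cas), a substrate of Ptpn12, had 51.1 FPKM in TIC and 14.6 FPKM in NTC, and Pstpip1, an adaptor of the PEST-type enzymes, had 2.11 and 0.260 FPKM. Nedd9 of the same family as Bcar1 had 4.83 FPKM in TIC and 32.6 FPKM in NTC, and the kinase Ptk2b had 0.454 and 6.85 FPKM. Adherens junction genes, at which the R2B receptors act, had 3 of 7 measured members 2-fold or more higher in TIC and 1 lower, of 8 listed (median 0.05). Cdh3 and Cdh2 passed through TIC only, so the filter fixed their direction. The cadherin Cdh3 had 208.8 FPKM in TIC and 0.665 FPKM in NTC, Cdh2 had 30.8 and 0.170 FPKM, and Ctnnb1 (beta-catenin) had 698.6 and 295.4 FPKM, while Cdh1 had 131.4 and 297.8 FPKM. Of the 8 Hippo genes linked to Ptpn14, all measured, Lats2 alone passed 2-fold, with 14.8 FPKM in TIC and 5.29 FPKM in NTC (median 0.50).

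**Figure D4:**
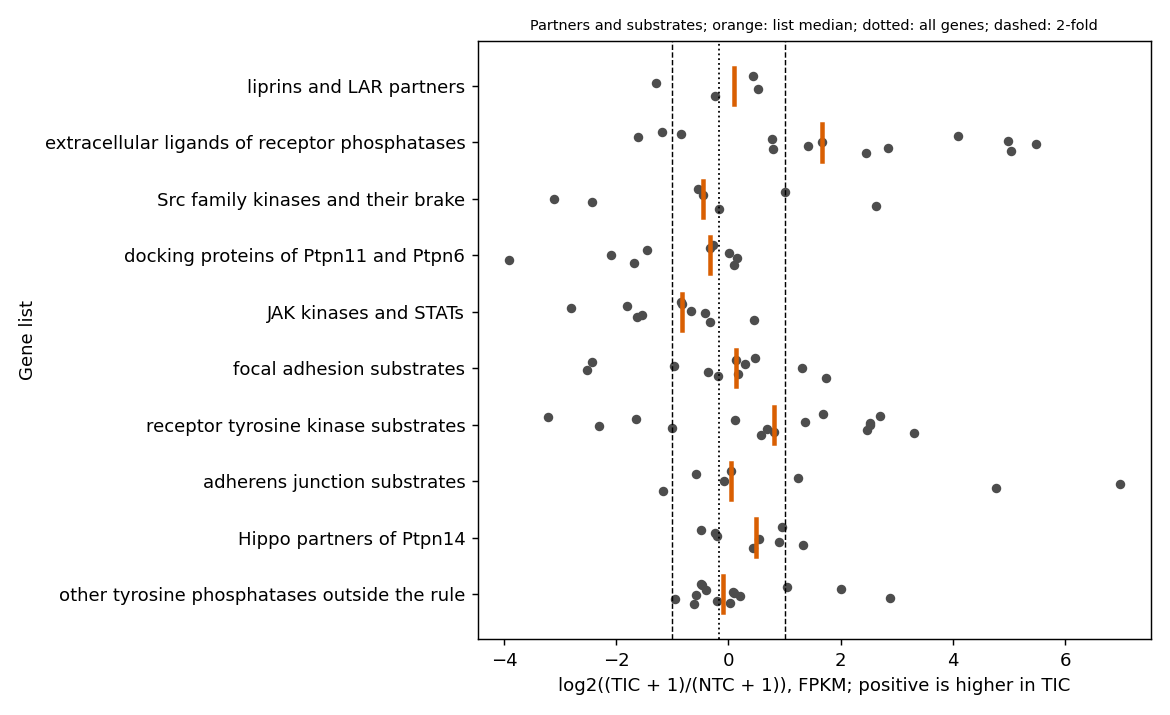
Log2 ratios of the measured genes in 10 lists of partners, substrates and related phosphatases (grey points), with the list median in orange, the median of all measured genes dotted and the 2-fold bounds dashed. The ligand list has its median at 1.68 and the JAK and STAT list at -0.83.

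The stretches before the start sites were then looked at for the genes with the largest difference in each direction. From RefSeq (GRCm38.p6), 46 windows of 250 bases upstream of a start were used for 32 members, and Ptpn2 was not used here either. The windows of Ptprt (chr2:162661148-162661397, minus strand) and Ptpn18 (chr1:34459496-34459745, plus strand) follow, 5′ to 3′, with matches to GGGCGG, the GC box, in capitals on either strand.
Ptprt: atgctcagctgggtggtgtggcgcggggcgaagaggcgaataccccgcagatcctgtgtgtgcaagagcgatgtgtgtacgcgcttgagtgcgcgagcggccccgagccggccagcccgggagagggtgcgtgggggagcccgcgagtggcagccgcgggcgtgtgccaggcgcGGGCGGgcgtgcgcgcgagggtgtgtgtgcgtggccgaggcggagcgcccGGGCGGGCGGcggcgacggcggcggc
Ptpn18: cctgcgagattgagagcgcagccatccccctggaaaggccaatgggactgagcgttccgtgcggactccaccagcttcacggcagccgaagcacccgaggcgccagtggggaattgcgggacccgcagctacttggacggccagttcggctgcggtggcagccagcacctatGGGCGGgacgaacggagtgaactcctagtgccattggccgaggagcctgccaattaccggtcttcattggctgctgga

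GGGCGG was found in 6 of 10 windows of members 2-fold or more higher in TIC, in 3 of 3 windows of those lower, in 9 of 15 of those within 2-fold in 6 of 18 of those not measured and in 32.7% of all 32851 windows of that length. The first 10 windows belong to 7 genes. The median GC content was 68.6% in the first group, 64.0% in the second and 67.6% in the third and 51.4% in the members not measured, beside 52.4% over all windows. Windows of CAGGTG, an E-box bound by Snail-type factors, numbered 2 of 10, 0 of 3 and 3 of 15 in the same order (17.2% of all, with both of the first group at Ptpre), those of GGAATG, the TEAD motif, 2 of 10, 0 of 3 and 2 of 15 (12.6% of all), and those of TTCNNNGAA, the STAT motif, 1 of 10, 0 of 3 and 2 of 15 (7.02% of all). Both strands were searched, and no motif contains another. A match is a description of the letters and no measure of binding.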

How the data were processed

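Gene-level FPKM tables of 1 TIC and 1 NTC library were used as deposited by the authors. Per the labels' protocols, a small amount of total RNA was amplified to cDNA, fragmented and sequenced, so the shares of reads can vary with length and base composition. The tools named are TopHat 1.4.0, CASAVA 1.8.2, Cufflinks and Cuffdiff, and the build mm9, per the submitters' processing notes; the sources used here give no settings. A human build stands in the locus heading, but 99.7% of 20009 matched symbols lay on the same chromosome as in mouse. Starts were raised by 1 to count from 1.

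Ratios took a pseudocount of 1 FPKM (Python 3.11.15, pandas 2.3.3), and all members whose mean reached 1 FPKM were named, with the 4 highest of the others. The arithmetic of the ratio and count steps was checked on simulated data, with exact fold changes and no noise. Changes were put only into genes well above the floor, so calls of low genes were not checked. Of each partner list, up to 3 genes past 2-fold in each direction were named, and of each marker list the highest. Other members below 1 FPKM, markers at 0, Col1a1, Coro1a, Ptp4a1 and Ptp4a2 were chosen after their values were seen. Some listed genes are not reported here. The members and lists were chosen with earlier results of these data known.

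Depth was estimated from FPKM times locus length in genes for smell and pheromone receptors under 1.5 kb. Products from 0.035 to 0.065, a range fixed beforehand, were taken as 1 read (23 genes in TIC, 39 in NTC). Their median puts the depth near 21.0 M fragments for TIC and 21.6 M for NTC. The fixed range itself bounds this estimate. Read numbers multiply the FPKM by the longest GENCODE transcript and by this depth, and are rough. Of 38 members, 31 shared no run of 50 bases with another gene's transcript, and no 2 measured members shared one. Ptprj had the largest share, 5.41%. Ptpn3, Ptpn7, Ptprh, Ptprq and Ptpru carry several gene identifiers.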

Additional observations from a re-analysis of the deposited data

How the results depend on the processing

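Over 7 alternative settings, the number of members at least 2-fold higher in TIC lay between 6 and 9 and the number lower stayed at 3. With a pseudocount of 5 it was 7, without Ptprv, and with a mean of at least 5 FPKM it was 6, since Ptprm and Ptprv were no longer measured. Without a filter it was 9, with Ptprd added. Ptpn9 was added with a pseudocount of 0.1, by centring on the median gene, by scaling to the same sum and by scaling to the same upper quartile. Chosen after seeing the data, ratios without a pseudocount also gave 9 higher and 3 lower, and leaving out genes of several identifiers gave 7 and 3, without Ptpru. The median log2 ratio of the members ran from 0.14 without a filter to 0.49 with equal sums. Equal sums moved the median of all genes from -0.16 to -0.0065, and the median-gene centring and equal upper quartiles (-0.059) also moved it up by over 0.1. Over all genes, 1749 were higher and 1658 lower, against 1086 and 921 with a pseudocount of 5 and 1108 and 1175 with a mean of at least 5 FPKM. No called member changed direction. The sizes of Ptprt (2.25 to 6.72), Ptprm (1.24 to 5.15), Ptpru (1.69 to 4.54) and Ptpn18 (-4.54 to -1.73) depended on the pseudocount, as did, by less, Ptpn13 (1.25 to 2.42), Ptpre (1.76 to 2.68) and Ptprz1 (-2.43 to -1.29). The receptor-type median of 0.82 was 0.41 once means under 5 FPKM were left out and 0.37 without a filter. Without a filter the ligand list's median was 0.89. No paired analysis was possible because each group had 1 library.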

Other observations

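Tyrosine phosphatases outside the symbol rule included 3 genes of 14 measured (15 listed) 2-fold or more above NTC in the TIC library and none as far below it, with a median log2 ratio of -0.10. Eya1, a developmental transcription cofactor with phosphatase activity, had 6.46 FPKM in TIC and 0.0122 FPKM in NTC. Ptp4a3 (PRL-3), a membrane-anchored phosphatase known from metastasis, had 11.5 FPKM in TIC and 2.11 FPKM in NTC, while its relatives Ptp4a1 (8.46 and 7.99 FPKM) and Ptp4a2 (57.7 and 76.8 FPKM) lay within 2-fold. Ptpdc1 had 3.19 FPKM in TIC and 1.03 FPKM in NTC.

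Genes named after the family that are known as dehydratases of fatty acid elongation also differed in both directions. Ptpla had 13.9 FPKM in TIC and 5.47 FPKM in NTC, Ptplb had 9.62 and 8.24 FPKM, Ptplad1 had 22.9 and 57.8 FPKM, and Ptplad2 had 0.424 and 3.91 FPKM. These were chosen after their values were seen.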
